A study of Mus musculus with 8 samples.

Results

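A set of 9 genes of the upper small intestine and of iron uptake were followed across 8 mouse Peyer's patch arrays. Gata4, Onecut2, Adh6a, Lct and Fabp1 stand for the proximal intestine, and Cybrd1, Slc11a2, Slc40a1 and Heph for iron transport. They were read by the 18 probe sets annotated to exactly 1 of these genes, of 45101 probe sets on the array. The genes were proposed with the values of these 8 arrays in view and the choice names no single contrast, so every level and difference of a member below is a description without a test. Total RNA came from C3H/HeJ mice, an inbred strain with a defective Tlr4, which all groups share. The allergen ovalbumin (OVA), from hen egg white, was gavaged at 40 mg/kg a day for 28 days from 6 weeks of age. The groups were female OVA (replicates 2 and 12), male OVA (replicates 1, 5, 8 and 13), female control (replicate 7) and male control (replicate 8), the controls receiving normal saline. Each sex thus had a lone control, and every difference between OVA and control within a sex rests on that array.

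Values are intensities on a linear scale as the authors normalized them, and differences are on the scale of log2(intensity + 4.88). Levels were compared between arrays for the same probe set, never between probe sets. Of the 18 probe sets, 16 lay above the filter on low values, an intensity of 11.9, and each of the 9 genes kept at least 1. The number of arrays limits the precision. In a bulk sample of gut wall, fewer cells of a type and less RNA per cell cannot be told apart. Trimmed mean intensities of the arrays lay between 65.1 and 68.2. The labels name Peyer's patches as the tissue, although their extraction text names a region of the brain. Of the B cell genes listed, 10 of the 10 with a probe set passed the filter, and 17 of 17 pan-enterocyte genes did. Exocrine pancreas genes stood apart in male OVA 13, with a summed intensity of 11404 over 9 genes, against 398 to 1255 in the other 7 arrays. Their part in the results for that array was not tested.

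The small intestine is patterned along its length. Enterocytes of the duodenum and jejunum carry the transcription factor GATA4 and take up lipid, sugar, folate, calcium and iron, while those of the ileum lack it and recover bile acids. Dietary iron is reduced at the brush border by the ferric reductase encoded by Cybrd1 and enters the cell through DMT1, the product of Slc11a2. It leaves through ferroportin, the product of Slc40a1, and is oxidised by hephaestin for loading onto transferrin. Hepcidin removes ferroportin from the membrane, and the hypoxia factor HIF-2α, encoded by Epas1, drives transcription of these transporters.

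Promoters of 4 of the 9 members were held in the RefSeq table for GRCm38.p6, and these 4 are shown because no other member had one there. Each runs from 250 bases before the annotated start to 50 bases from it, 5′ to 3′ on the gene's strand. Capitals mark words searched on both strands, namely AGATAA or AGATAG or TGATAA or TGATAG for GATA factors, GTTAAT for HNF1, TTTATA or TTTATG for CDX factors, and ACGTG or GCGTG for hypoxia factors. The windows were chr3:138313036-138313335 on the plus strand for Adh6a, chr1:128328269-128328568 on the minus strand for Lct, chr6:71199629-71199928 on the plus strand for Fabp1 and chr2:71117804-71118103 on the plus strand for Cybrd1.
Adh6a: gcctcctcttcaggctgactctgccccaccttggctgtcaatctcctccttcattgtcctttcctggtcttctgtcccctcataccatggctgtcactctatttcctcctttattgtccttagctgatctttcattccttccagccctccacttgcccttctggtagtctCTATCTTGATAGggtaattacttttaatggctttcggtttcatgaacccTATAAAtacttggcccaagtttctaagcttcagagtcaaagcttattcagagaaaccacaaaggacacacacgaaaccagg
Lct: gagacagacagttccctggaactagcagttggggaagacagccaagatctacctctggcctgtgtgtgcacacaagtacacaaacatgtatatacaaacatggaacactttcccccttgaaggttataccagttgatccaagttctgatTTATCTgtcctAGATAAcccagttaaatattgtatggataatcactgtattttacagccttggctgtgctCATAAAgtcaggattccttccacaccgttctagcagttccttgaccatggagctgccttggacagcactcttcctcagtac
Fabp1: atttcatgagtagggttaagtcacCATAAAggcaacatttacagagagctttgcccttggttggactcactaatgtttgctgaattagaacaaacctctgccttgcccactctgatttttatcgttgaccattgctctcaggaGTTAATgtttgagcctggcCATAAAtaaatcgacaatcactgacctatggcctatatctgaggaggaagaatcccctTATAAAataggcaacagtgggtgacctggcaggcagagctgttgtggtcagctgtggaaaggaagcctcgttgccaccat
Cybrd1: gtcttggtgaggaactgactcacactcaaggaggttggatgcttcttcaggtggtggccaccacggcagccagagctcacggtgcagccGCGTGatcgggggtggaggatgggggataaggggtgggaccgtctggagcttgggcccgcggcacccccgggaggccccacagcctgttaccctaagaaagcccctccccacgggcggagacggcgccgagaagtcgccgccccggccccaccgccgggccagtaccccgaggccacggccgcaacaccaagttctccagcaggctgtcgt
GATA words stood in the Lct window at -101 and -90 and in the Adh6a window at -80 and -74, counted from 0 at the annotated start to the first base of the word in the window. Of all 32851 promoters in the table, 29.8% held such a word. The HNF1 word stood in the Fabp1 window at -107, and 7.1% of all promoters held it. CDX words stood at -226, -88 and -30 in Fabp1, -31 in Lct and -31 in Adh6a, and 22.8% of all promoters held one. Near -30, TTTATA and TTTATG also overlap the place of a TATA box. The hypoxia word stood in the Cybrd1 window at -161, and 43.8% of all promoters held one. With 4 windows these matches describe the letters only.

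**Figure D1:**
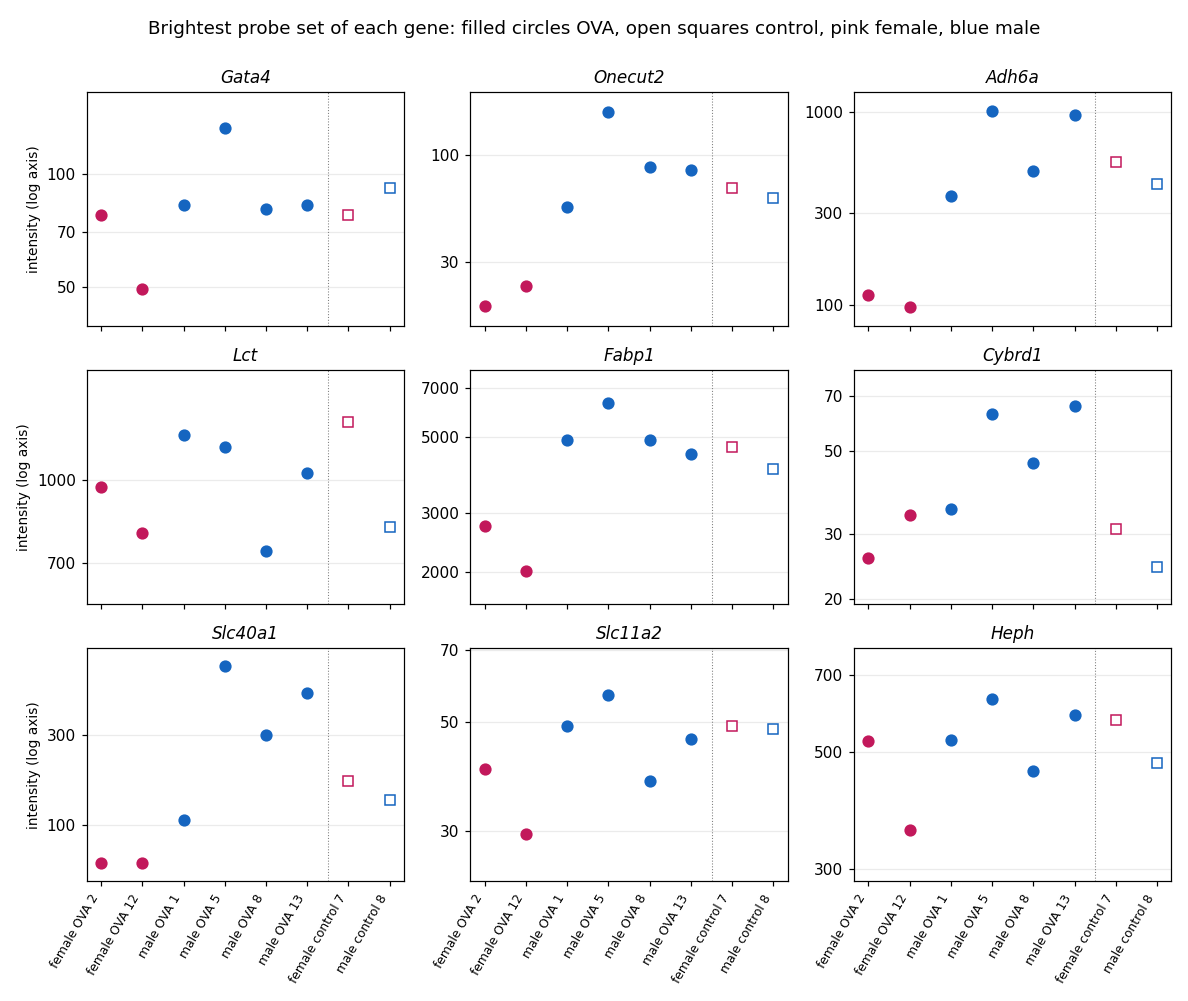
Intensity (log axis) of the brightest probe set of each gene on each array; filled circles are OVA, open squares control, pink female and blue male. Male OVA 5 is the highest array for 7 of the 9 genes, and Onecut2, Adh6a, Fabp1 and Slc40a1 are lowest on the 2 female OVA arrays.

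The regulators and enzymes of the proximal intestine are described first. Onecut2 encodes a homeodomain factor that acts on the duodenal enhancer of adenosine deaminase. Its brightest probe set read 18.5 and 23.1 in female OVA mice, 55.9, 161, 87.1 and 84.5 in male OVA 1, 5, 8 and 13, and 68.5 and 61.4 in the female and the male control. Both female OVA arrays lay below the other 6, and male OVA 5 lay above all others. The remaining probe sets of Onecut2 ran the same way. The brighter of them read 8.48 and 9.04 in female OVA mice, both below the filter value, 25.4 to 88.1 in male OVA mice and 53.3 and 41.5 in controls. The dimmest read 6.21 and 4.54 in female OVA mice, likewise below the filter value, against 20.6 to 52.9 in male OVA mice and 29.3 and 23.4 in controls. Across the 8 arrays these 3 probe sets had r of 0.973 to 0.980 with each other. Female OVA minus male OVA was -1.90 (log2) for the brightest of them. The difference from the control of the same sex was -1.52 in females and 0.53 in males.

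Adh6a, which encodes an alcohol dehydrogenase, spanned 10.4-fold from the lowest to the highest array, where the 3 probe sets of Onecut2 spanned 8.71-fold to 11.7-fold. It read 113 and 97.7 in female OVA mice, 366, 1014, 494 and 958 in male OVA 1, 5, 8 and 13, and 549.8 and 425 in the female and the male control. The female OVA arrays did not overlap with any other array, and male OVA 5 and 13 were the highest. Female OVA mice averaged 105 ± 10.6 (SD, n = 2) and male OVA mice 708 ± 326 (SD, n = 4), and the controls 487 ± 88.4 (SD, n = 2). The alcohol dehydrogenase Adh1, not a member, read 2239 and 2292 in female OVA mice, 4666 to 6546 in male OVA mice and 4316 and 4249 in controls.

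Fabp1 encodes the liver-type fatty acid binding protein of the proximal gut. Its brightest probe set read 2744 and 2024 in female OVA mice, 4925, 6329.6, 4906 and 4462 in male OVA 1, 5, 8 and 13, and 4699 and 4045 in the female and the male control. Female OVA arrays were the lowest 2 of the 8, while each of the 4 male OVA arrays exceeded the male control. The difference from the control of the same sex was -0.99 (log2) in females and 0.34 in males. The second probe set gave -0.93 in females and 0.48 in males. Its relatives did not share that order. Fabp2, the intestinal type present along the small intestine, read 7628 and 7014 in female OVA mice, 7055 to 8391 in male OVA mice and 8280.5 and 7089 in controls, and these groups overlapped. Of 12 alcohol dehydrogenase, fatty acid binding protein and disaccharidase genes past the filter that are not members, 0 were called, and the median OVA minus control was -0.05 (log2), where that of all genes was 0.02. Without the female control that median was 0.17, and without the male control -0.22.

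Gata4 and Lct varied less. Gata4, the factor that keeps jejunal identity, read 77.9 and 49.4 in female OVA mice, 82.4, 132, 80.6 and 82.4 in male OVA 1, 5, 8 and 13, and 77.7 and 91.8 in the female and the male control. Apart from female OVA 12 and male OVA 5, all arrays lay between 77.7 and 91.8. The second Gata4 probe set, at 5.63 to 11.2, did not pass the filter. Lct encodes lactase, the brush border enzyme that splits milk sugar. It read 971 and 795 in female OVA mice, 1209, 1150.5, 736 and 1029.5 in male OVA 1, 5, 8 and 13, and 1277 and 817 in the female and the male control. These groups overlapped, and the controls themselves differed 1.56-fold, close to the 1.73-fold span of all 8 arrays.

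Among the iron genes, Slc40a1, the iron exporter, had the widest span. It read 62.8 and 62.9 in female OVA mice, 106, 691, 299.6 and 500.0 in male OVA 1, 5, 8 and 13, and 170.2 and 135 in the female and the male control. The female OVA arrays were lowest, male OVA 1 lay below both controls, and male OVA 5, 8 and 13 lay above them. The second probe set read 12.8 and 11.1 in female OVA mice, 23.4, 206, 66.2 and 122 in male OVA mice in the same order, and 28.5 and 35.3 in controls. Both probe sets had r = 0.989 across the arrays. The highest array exceeded the lowest 11-fold for the brighter and 18.6-fold for the dimmer probe set, while the controls differed 1.26-fold and 1.24-fold. The female OVA values of the dimmer probe set lay close to the filter value of 11.9, which limits its span. Female OVA minus female control was -1.37 (log2), and male OVA minus male control 1.24. Over both sexes these differences gave OVA minus control of 0.05 ± 0.72 (SE). Without male OVA 13, the array high in pancreas genes, it was -0.10, and without male OVA 5 it was -0.18.

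Slc40a1 is also expressed by macrophages that recycle iron from red cells. Of 12 macrophage genes, 9 passed the filter, and their summed intensity was 2365 and 3210.5 in female OVA mice, 2820 to 3209 in male OVA mice and 2806 and 2763 in controls. Csf1r, a receptor of that lineage and the brightest of them, spanned 1.37-fold over the 8 arrays. Adgre1, the dim gene of the F4/80 marker, was picked after its values were seen. It read 16.4 and 20.8 in female OVA mice, 23.4, 27.9, 20.9 and 29.3 in male OVA 1, 5, 8 and 13, and 21.3 and 31.2 in controls. The female OVA arrays were thus its lowest 2, narrowly, as male OVA 8 read 20.9, and its span was 1.90-fold. Of the 9 macrophage genes it was the only 1 with both female OVA arrays below all male OVA arrays (10.2% of all tested probe sets). For Cd68 and C1qc, female OVA 12 was instead the highest array, at 200 and 326. The part of macrophages in the Slc40a1 values was not tested. The heme oxygenase Hmox1 lay below the filter on every array, at 8.60 to 9.89.

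Cybrd1 read 25.9 and 33.6 in female OVA mice, 35.0, 62.8, 46.3 and 65.8 in male OVA 1, 5, 8 and 13, and 30.8 and 24.4 in the female and the male control. The 4 male OVA arrays lay above the female OVA arrays and both controls, whereas the female OVA arrays overlapped with the controls. Male OVA minus male control was 0.94 (log2) and female OVA minus female control -0.05. OVA minus control over both sexes was 0.49 ± 0.27 (SE), the only member besides Slc40a1 on the positive side. The second probe set was dim, at 9.19 to 19.1, and its value was 0.18 ± 0.14 (SE). It did not repeat the gap between the sexes in OVA minus control, which was 0.16 in females and 0.20 in males. The order of the OVA arrays was repeated, with 11.6 and 10.2 in female OVA mice below the 12.8 to 19.1 of male OVA mice on this probe set. On it male OVA 1 (12.8) lay below the male control (12.9).

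Slc11a2 and Heph spanned less. Slc11a2, the iron importer, had 4 probe sets, 3 of them past the filter. The brightest read 40.1 and 29.6 in female OVA mice, 49.0, 56.6, 37.9 and 46.1 in male OVA 1, 5, 8 and 13, and 48.9 and 48.4 in the female and the male control. Another, almost as bright, read 44.1 and 22.5 in female OVA mice, 33.3, 63.2, 44.2 and 67.5 in male OVA mice in the same order, and 34.1 and 48.4 in controls. The groups overlapped for both. The third read 34.1 and 38.9 in female OVA mice, below the 43.8 to 48.6 of male OVA mice, and 38.8 and 43.9 in controls. The probe set below the filter read 6.27 and 5.07 in female OVA mice, its lowest arrays, and 7.81 to 10.4 elsewhere. Among the 3 past the filter r was 0.297 to 0.634, so the probe sets of this gene did not order the arrays alike. These 3 spanned 1.91-fold, 2.995-fold and 1.43-fold over the 8 arrays. Heph encodes the oxidase that works with ferroportin. It read 525 and 355 in female OVA mice, 526, 630.2, 459.9 and 586 in male OVA 1, 5, 8 and 13, and 574 and 476 in the female and the male control, with all groups overlapping. Heph spanned 1.78-fold over the 8 arrays. For the exporter the span was 11-fold or more with either probe set.

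**Figure D2:**
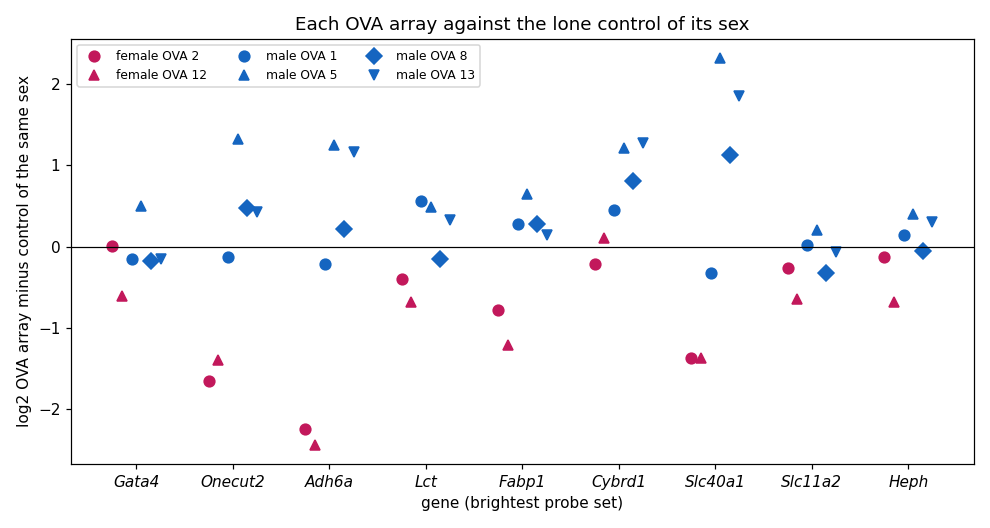
Difference on the scale of log2(intensity + 4.88) between each OVA array and the lone control of its sex, for the brightest probe set of each gene; pink is female and blue male, and symbols tell the arrays apart. Female OVA 2 and 12 lie below their control for 8 of 9 genes each, and male OVA 5 lies above its control for all 9.

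Counted against the control of the same sex, 8 of the 9 members were lower in female OVA 2 and 8 in female OVA 12, the exceptions being Gata4 (0.00) and Cybrd1 (0.11). In male OVA 5 all 9 were higher, in male OVA 13 7, and in male OVA 1 and 8 5 each. In limma's fit over all 22518 probe sets past the filter, 0 (0%) were called for OVA against control, 0 (0%) for the difference in the OVA effect between the sexes and 12 (0.0533%) for female against male, at a Benjamini-Hochberg adjusted p under 0.05. At an unadjusted p under 0.05 there were 2525, 1846 and 1218. No member probe set was among those called in these 3 comparisons, nor when the OVA arrays alone were compared between the sexes (13 called, 0.0577%). Both female OVA arrays lay below all 4 male OVA arrays for 12 of the 16 member probe sets, where 10.2% of all tested probe sets did so, and below all 6 other arrays for 8 of the 16 (6.82% of all). For no member probe set did both lie above all 4 male OVA arrays (7.57% of all). Male OVA 5 was the highest array for 11 of the 16, and for 14.1% of all tested. The members were chosen on these arrays, so nothing is read from those shares. For no member probe set did all 6 OVA arrays lie above both controls (8.36% of all) or below both (5.01% of all). OVA minus control was -0.73 ± 0.62 (SE) for Adh6a, -0.40 ± 0.46 (SE) for Onecut2, -0.27 ± 0.28 (SE) for Fabp1, -0.23 ± 0.17 (SE) for Slc11a2, -0.13 ± 0.22 (SE) for Gata4, -0.08 ± 0.20 (SE) for Heph and -0.08 ± 0.24 (SE) for Lct. Without the female control, which leaves the contrast within males, the value was 0.60 for Adh6a, 0.53 for Onecut2, 0.34 for Fabp1, 0.31 for Lct, 0.20 for Heph, 0.01 for Gata4, 1.24 for Slc40a1, 0.94 for Cybrd1 and -0.04 for Slc11a2. Without the male control, which leaves the contrast within females, it was -2.34 for Adh6a, -1.52 for Onecut2, -0.99 for Fabp1, -0.54 for Lct, -0.41 for Heph, -0.30 for Gata4, -1.37 for Slc40a1, -0.05 for Cybrd1 and -0.45 for Slc11a2. Slc11a2 alone kept its sign in both.

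The members moved together over the 8 arrays to unequal degrees. The 36 pairs of brightest probe sets had a median r of 0.716 and ran from 0.160, for Lct and Cybrd1, to 0.955, for Onecut2 and Adh6a. Slc40a1 had r = 0.924 with Onecut2, 0.917 with Adh6a and 0.866 with Cybrd1, but 0.211 with Lct. Slc11a2 and Heph had r = 0.884. These values share the 8 arrays and their normalization, and they describe an order of arrays set largely by a few of them. The genes whose log2 values were most like those of Slc40a1, among 11988 genes, were Slc19a3, a thiamine transporter (r = 0.991), the carboxylesterase Ces2b (0.988) and the intestinal alkaline phosphatase Akp3 (0.988). Akp3 read 9.26 and 12.5 in female OVA mice, 14.3, 318, 84.3 and 222 in male OVA 1, 5, 8 and 13, and 42.2 and 23.1 in controls. Nearest to Onecut2 were Prdm16 (r = 0.986), Ugt2b5 (0.985) and Ulk2 (0.983), and nearest to Adh6a were Tcaf2 (0.988), 6030458C11Rik (0.983) and Tysnd1 (0.982). For Fabp1 these were the peptidase Mme (0.988), Ctage5 (0.984) and Ces1f (0.980). For Cybrd1 they were Top1mt (0.955), Meis2 (0.942) and Poglut3 (0.929), and for Gata4 Zfp946 (0.977), Hspa1b (0.972) and Sec63 (0.970). Lct was nearest to Zbtb16 (0.962), the ceramidase Asah2 (0.961) and the peptide transporter Slc15a1 (0.953). Slc11a2 was nearest to Ak3 (0.990), Slc35g1 (0.985) and Sec14l2 (0.984), and Heph to Cdr2 (0.990), Ifit1bl2 (0.981) and Pgm2 (0.978).

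**Figure D3:**
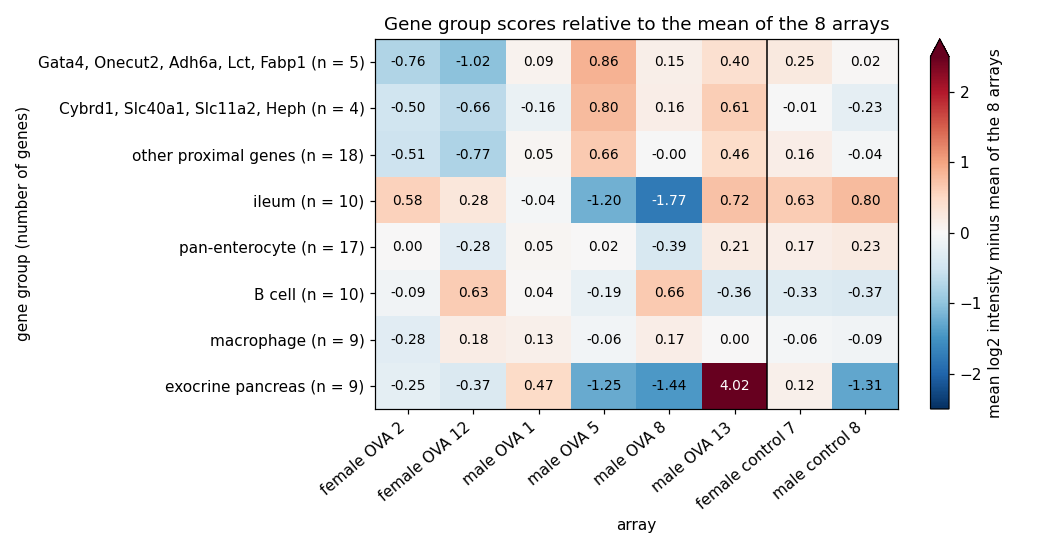
Mean log2 intensity of 8 gene groups on each array, relative to the mean of the 8 arrays, with the number of genes in parentheses; red is above and blue below that mean, and the line separates OVA from control. The proximal and iron members are lowest in female OVA 2 and 12 and highest in male OVA 5, the ileum group is lowest in male OVA 5 and 8, and the pancreas group is highest in male OVA 13.

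Epithelial RNA, not cell number, was represented by 17 pan-enterocyte genes such as Epcam and Krt8. Their score, a mean of log2 intensities centred over the arrays, stood at 0.00 and -0.28 in female OVA 2 and 12, 0.05, 0.02, -0.39 and 0.21 in male OVA 1, 5, 8 and 13, and 0.17 and 0.23 in the female and the male control. After this score was subtracted, the range over the 8 arrays was 3.35 (log2) for Slc40a1, against 3.36 before. It was 3.10 for Adh6a, against 3.31 before, and 2.82 for Onecut2, against 2.83. For Slc11a2 it was 0.54, against 0.84, and for Heph 0.62, against 0.82. For Cybrd1 it was 1.43, against 1.27 before. After the subtraction the lowest array was female OVA 2 or 12 for Gata4, Onecut2, Adh6a, Fabp1, Slc40a1 and Slc11a2. It was the male control for Lct, Cybrd1 and Heph, of which Heph had been lowest in female OVA 12 before. Of the 17 genes, Alpi was the only 1 with both female OVA arrays below all male OVA arrays (10.2% of all tested probe sets). It read 1345 and 993 in female OVA mice, 2282 to 4349 in male OVA mice and 2603 and 2425 in controls. The part of the amount of epithelium in the members' spans was not tested. The B cell score was highest in male OVA 8 (0.66) and female OVA 12 (0.63), of which the first stood at 0.15 and the second at -0.86 in the mean of the 9 members.

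Other genes of the proximal intestine, from a list of 20 that holds no member, were lowest on the female OVA arrays and highest in male OVA 5 in their mean score. Of the 18 that passed the filter, 0 were called in either direction for OVA against control, for the sexes or for the difference in the OVA effect. All 18 had a more negative OVA effect in females than in males, as had 5311 of all 11988 genes tested. The 18 genes share the same arrays and the lone control of each sex, so their signs are not independent. The median of that difference in the OVA effect was -0.80 (log2), where the median of all genes tested was 0.05. The brightest were the apolipoproteins Apoa1, Apoa4 and Apoc3 and adenosine deaminase, Ada. Ada read 1625 and 1311 in female OVA mice, 2685, 4168, 2409 and 3828 in male OVA 1, 5, 8 and 13, and 2531 and 2021 in the female and the male control. Apoa4 read 5584 and 4627 in female OVA mice, 6257 to 7354 in male OVA mice and 6635 and 5437 in controls. For both genes the female OVA arrays lay below all male OVA arrays and male OVA 5 was highest, and for Apoa4 the female OVA arrays overlapped with the controls. Of the 18 genes, 11 had both female OVA arrays below all male OVA arrays, where 10.2% of all tested probe sets did so. Npc1l1 did not, at 982 and 668 in female OVA mice and 436 to 914 in male OVA mice. The genes that follow were picked after their values were seen, and have the widest spans of the list. S100g, the vitamin D-dependent calcium binding protein of the duodenum, read 14.7 and 29.1 in female OVA mice, 37.6, 674, 314 and 1261 in male OVA 1, 5, 8 and 13, and 121 and 104 in controls. The folate transporter Slc46a1 read 25.01 and 38.9 in female OVA mice, 139.6, 496, 286 and 381 in male OVA mice, and 246 and 167 in controls. Pdx1, a factor of duodenum and pancreas, read 4.53 and 5.58 in female OVA mice, 7.51, 71.6, 35.8 and 40.5 in male OVA mice, and 18.9 and 13.8 in controls. In male OVA 5, where Pdx1 was highest, the pancreas protease gene Ctrb1 read 18.5, and in male OVA 13 it read 2999.

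**Figure D4:**
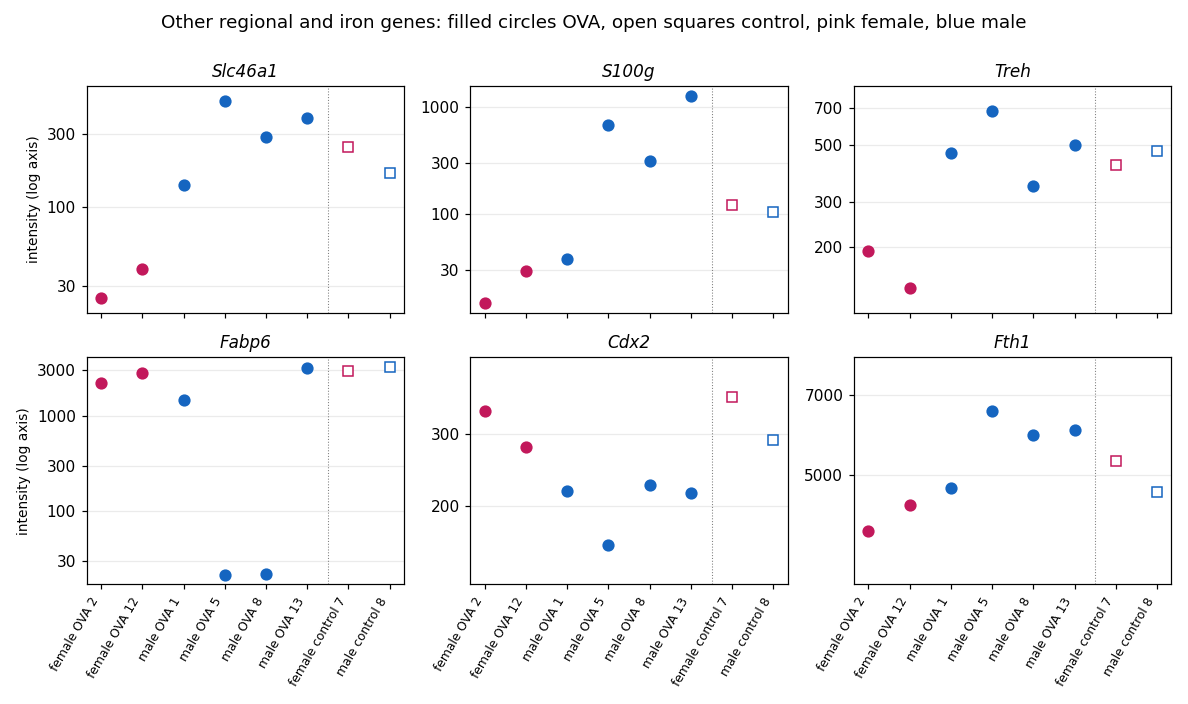
Intensity (log axis) of 6 genes outside the members on each array; filled circles are OVA, open squares control, pink female and blue male. Slc46a1, S100g and Treh are lowest in female OVA 2 or 12, and Fabp6 stands at 21.2 and 21.7 in male OVA 5 and 8 and at 1474 or more elsewhere.

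Genes of the ileum ran differently. Fabp6, the ileal bile acid binding protein, read 2189 and 2828 in female OVA mice, 1474, 21.2, 21.7 and 3163 in male OVA 1, 5, 8 and 13, and 2974 and 3297 in the female and the male control. Male OVA 5 and 8 stood alone at the low end, and both lay above the controls for the brightest probe sets of Slc40a1, Cybrd1 and Onecut2. Male OVA 13 had high values of Fabp6 and of Slc40a1, Cybrd1 and Adh6a, so a high level of the members was not always paired with a low level of Fabp6. Female OVA 2 and 12 had the lowest 2 values of Onecut2, Adh6a, Fabp1 and Slc40a1, with Fabp6 at 2189 and 2828. Slc51a, a bile acid exporter chain, read 785 and 675 in female OVA mice, 567, 436, 288 and 892 in male OVA mice, and 861 and 898 in controls. All 10 ileal genes past the filter were on the negative side for OVA against control (median -0.70, all genes 0.02), and 0 were called. On that side were also 16 of the 17 pan-enterocyte genes, and 5555 of all 11988 genes tested. The ileal median was -0.17 without the male control and -1.27 without the female control. Among regional transcription factors, Cdx2, a factor of intestinal identity, read 343 and 279 in female OVA mice, 217, 159.6, 224 and 215 in male OVA mice, and 372 and 291 in controls. Its female minus male difference was 0.53 ± 0.14 (SE, limma adjusted p = 0.901), and the sexes overlapped, since female OVA 12 lay below the male control. Gata6 read 235 and 178 in female OVA mice, 187 to 329.6 in male OVA mice and 268 and 291 in controls.

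The rest of the iron pathway spanned less than the exporter. Of 24 listed genes of iron uptake, export and regulation, 19 passed the filter, 0 were called in any comparison, and the median OVA minus control was 0.01 (all genes 0.02). Both female OVA arrays lay below all male OVA arrays for 6 of the 19 (10.2% of all tested probe sets) and above them for 1 (7.57%). Epas1 read 547 and 562 in female OVA mice, 678, 1038, 830.4 and 876 in male OVA 1, 5, 8 and 13, and 713 and 742 in the female and the male control. Its female OVA arrays were lowest, male OVA 1 lay below both controls and the other 3 male OVA arrays above them, as for the brightest probe set of Onecut2. The iron regulatory protein genes Aco1 and Ireb2 were highest in male OVA 5 (912 and 315) and lowest in female OVA 12 (397 and 169.7). The transferrin receptor Tfrc, which imports iron in dividing cells, read 629 and 420.0 in female OVA mice, 489 to 729.9 in male OVA mice and 715 and 799.6 in controls. Hamp, the hepcidin gene expressed chiefly by liver, was close to the filter, at 22.4 and 26.5 in female OVA mice, 18.6, 8.83, 15.3 and 13.2 in male OVA mice, and 9.86 and 10.3 in controls. Its OVA minus control was 0.61 ± 0.22 (SE, limma adjusted p = 0.412). Of 20 genes of iron storage, chaperones and heme, 16 passed the filter, 0 were called, and the median was 0.05. For 4 of these 16 both female OVA arrays lay below all male OVA arrays, and for 1 above them. Without the male control the medians of these lists were -0.04 and -0.01. The ferritin heavy chain Fth1, which stores iron, read 3945 and 4410.5 in female OVA mice, 4738, 6550.3, 5922 and 6047 in male OVA mice, and 5295 and 4649 in controls. The female OVA arrays were its lowest 2 and male OVA 5, 8 and 13 its highest 3, the same 3 as for Slc40a1. Pcbp1 and Pcbp2, which carry iron to ferritin, spanned 1.31-fold and 1.24-fold.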

How the data were processed

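Probe set intensities of 8 single-colour Affymetrix mouse arrays were used as the authors deposited them, normalized and on a linear scale. MAS5 is named in the submitters' processing notes, without a version, and no scaling or background setting is stated. Of all probe sets, 23229 (51.5%) held equal values on 2 or more arrays. Intensities were taken to log2(value + 4.88), the pseudocount being the 25th percentile of all values. Without 64 control probe sets, the 22518 above the median (an intensity of 11.9) were tested two-sided in limma 3.58.1 (lmFit, eBayes; R version 4.3.3) with Benjamini-Hochberg adjustment over all of them. An additive fit of treatment and sex had 5 residual degrees of freedom, and a fit of 4 group means had 4. The labels number the mice, and p-values measure only the spread between these arrays. The methods were tested on simulated data. By the platform annotation 34958 probe sets name 1 gene, 932 name several and 9211 have no gene name; the identifiers of all 9 members were in the reference gene table. A gene outside the members was its brightest probe set past the filter. The 4 brightest genes of each of 13 lists, 14 set genes and the 3 most similar genes per member could be named. Other named genes, such as S100g, Slc46a1, Pdx1, Treh, Alpi and Adgre1, were picked after their values were seen. Members and lists were chosen with earlier results of these data known. Alternatives were other pseudocounts, averaging the probe sets of each gene, quantile normalization, median centring, other filters, trend and robust variance, array weights, no sex covariate, each array left out, each sex alone and, added after seeing the data, the OVA arrays alone. Python 3.11.15, NumPy 2.4.6, pandas 2.3.3 and matplotlib 3.10.9 made tables and figures.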

Additional observations from a re-analysis of the deposited data

Results flagged for a closer look

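Gata4 in male OVA mice had 1 array, male OVA 5 at an intensity of 132, far from the other 3 at 80.6 to 82.4. The gap to the nearest array was 0.955 of the range on the log2 scale. The exocrine pancreas score had male OVA 13 far above the other OVA arrays, with a gap of 0.65 of the range. Of 58 groups of values examined this way 2 stood out, and chance gives about 1 in 20. Both probe sets of Fabp1 lay below the female control in each of the 2 female OVA arrays and above the male control in each of the 4 male OVA arrays. The OVA effect in females minus that in males was -1.331 and -1.407 (log2). In limma's fit of 4 group means over all probe sets, 0 of 22518 were called for this difference (1846 at an unadjusted p under 0.05).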

How the results depend on the processing

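The count of called probe sets was 0 for OVA against control and for the difference in the OVA effect under every alternative run. For female against male it was 12, and 4 with the filter at the 75th percentile, where fewer probe sets are tested. Leaving out 1 array at a time gave 9 to 13. No paired analysis was run, since the labels give no pairing between the groups compared. Of 336 alternative values of the members' differences, 322 moved by less than the SD among OVA arrays, 14 moved further and 29 had the other sign. The values that moved further came from leaving out a control or from the contrast within 1 sex, and concern OVA minus control of Onecut2, Adh6a, Lct, Fabp1, Cybrd1 and Heph. That SD includes the gap between female and male OVA arrays, so a gene of wide span had to move more to be counted. For Slc40a1, counted as moving less, OVA minus control was 1.24 without the female control and -1.37 without the male control. These counts and those of the list medians thus do not measure stability. Female minus male stayed negative for Gata4, Onecut2, Adh6a, Fabp1, Cybrd1, Slc40a1 and Slc11a2 under all alternatives run. For Slc40a1 it ran from -2.29 to -1.26 when 1 array was left out. For Heph it was 0.07 without female OVA 12. OVA minus control of Slc40a1 was -0.29 with array weights. Of 442 alternative list medians, 440 moved by less than the spread among OVA arrays, and 38 had the other sign. Signal close to background limits Hamp, Pdx1, the dimmer Cybrd1 and Slc40a1 probe sets and all Onecut2 probe sets but the brightest.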
